A study of Mus musculus with 4 samples.

Results

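The genes described here are 9 transcriptional targets of transforming growth factor beta (TGF-beta) and bone morphogenetic protein (BMP) signalling that lie outside the SMAD machinery: Pmepa1, Ldlrad4, Tgfbi, Id1, Id3, Bhlhe40, Cdkn1a, Cdkn2b and Itga1. They were taken by symbol from a table of 38697 genes, and each symbol matched 1 row. Group 2 innate lymphoid cells (ILC2s), tissue lymphocytes that make interleukin-5 and interleukin-13, were sorted from lungs of C57BL/6 mice given bleomycin, an agent that injures the lung and leads to fibrosis. The wild-type group (WT, genotype R5/+) and the knockout group (KO, genotype R5/+ with Nrp1f/f) had 2 samples each, and each sample pooled 3 to 4 mice. Both groups carried 1 copy of R5, an Il5 knock-in that encodes a reporter and Cre recombinase, so that deletion of floxed Nrp1 depends on Il5 expression. All cells came from bleomycin-treated lungs, and ages are not given in the labels. Neuropilin-1, the product of Nrp1, is a co-receptor that binds TGF-beta as well as semaphorins and VEGF. The comparison thus addresses whether transcripts that respond to TGF-beta or BMP differ between lung ILC2s with and without intact Nrp1.

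TGF-beta and BMP ligands bind pairs of serine/threonine kinase receptors that phosphorylate SMAD proteins, TGF-beta mainly SMAD2 and SMAD3 and BMP mainly SMAD1, SMAD5 and SMAD9. The SMADs then enter the nucleus with SMAD4 and raise or lower target genes together with other factors. Some targets feed back on the pathway (Pmepa1, Ldlrad4), some are transcriptional inhibitors (Id1, Id3, Bhlhe40), some stop the cell cycle (Cdkn1a, Cdkn2b) and some encode matrix or adhesion proteins (Tgfbi, Itga1). Several also respond to other inputs, such as p53 for Cdkn1a and cytokine or antigen receptor signals for Bhlhe40. ILC2s do not need to be the only source of these RNAs in a sorted library, since Id1 and Id3 are well known in endothelium and Tgfbi in macrophages. In such bulk samples, fewer cells of a type and less RNA per cell cannot be told apart.

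Upstream sequence of 5 of these genes was searched for the short letters that SMAD proteins contact. Of these, 2 stretches are shown because they come from an abundant and a scarce target with SMAD letters close to the start site. RefSeq promoter windows (GRCm38.p6) were used for 5 of the 9 genes, Cdkn2b, Id3, Tgfbi, Itga1 and Cdkn1a. These gave 6 windows, since Cdkn1a has more than 1 start site. Id1, Pmepa1 and Bhlhe40 had no window listed, and the remaining target gene was left out of the search, so the counts below do not cover it. The printed stretches hold the bases before the start site that lie in no GENCODE exon, Cdkn1a at chr17:29090729-29090975 (plus strand, the upstream start site) and Tgfbi at chr13:56609336-56609522 (plus strand). Capitals mark the short SMAD element GTCT, read on either strand as GTCT or AGAC, and the GC-rich SMAD element GGCGCC.
Cdkn1a: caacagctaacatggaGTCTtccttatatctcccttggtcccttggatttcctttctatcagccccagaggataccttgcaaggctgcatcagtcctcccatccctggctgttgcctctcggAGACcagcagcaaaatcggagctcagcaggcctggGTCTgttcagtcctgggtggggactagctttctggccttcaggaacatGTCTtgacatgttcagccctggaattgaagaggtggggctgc
Tgfbi: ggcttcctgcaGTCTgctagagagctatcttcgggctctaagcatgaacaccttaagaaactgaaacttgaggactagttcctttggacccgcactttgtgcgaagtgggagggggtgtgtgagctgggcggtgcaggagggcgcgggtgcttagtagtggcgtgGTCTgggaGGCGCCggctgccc
The GC-rich element of Tgfbi spans -77 to -72 from the RefSeq start site. In windows of 250 upstream bases, GTCT or its reverse complement was found in 6 of the 6 windows used. It was found in 82.9% of the 32851 windows of all genes, so it marks nothing out here. GGCGCC, which is its own reverse complement, was found in 1 of the 6, that of Tgfbi, and in 9.59% of all windows. The CAGA box CAGACA was found in 1 of the 6, a window of Cdkn1a but not the printed stretch, and in 17.1% of all windows. The SMAD half-site pair GTCTAGAC was found in 0 of the 6 and in 0.167% of all windows. These are matches of letters and not measured binding.

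Nrp1, the targeted gene, was listed in the authors' deposited table at a log2 fold change of -1.18 ± 0.21 (SE, KO over WT; adjusted p = 1.27e-04), a gene-level value that does not isolate the floxed exon. The table gives for each gene a normalized count averaged over the libraries, the log2 fold change, its standard error (SE, given after ±) and a p-value with Benjamini-Hochberg adjustment over 19193 genes. The deposited mean counts sum to 12974883 over all genes, and values per library were not analysed here, so the level of each genotype below is derived from the deposited mean and fold change and has no spread of its own. In the authors' deposited table, 106 genes (0.552% of those tested) passed an adjusted p of 0.05, 87 of them higher and 19 lower in KO. All 12 ILC2 markers examined, Gata3, Il1rl1 and Il7r among them, were detected, with a summed mean of 185163 normalized counts in WT and 155160 in KO.

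In the authors' deposited table, 0 of the 9 target genes passed the authors' test (under the headings of DESeq2) at that threshold, against 0.552% of all genes tested. At an unadjusted p under 0.05 the count was 1 of 9, against 13.6% of all genes in either direction. That gene was Ldlrad4, lower in KO, as were 3.95% of all genes at this p. Among genes with a mean count of at least 1000, as Ldlrad4 has (2119), 536 of 2480 were lower at this p. The count was 0 of 9 when centred on abundant genes (13.5% of all genes) and 0 of 9 less the median of genes of like mean count (4.98%), with Ldlrad4 at an unadjusted p of 0.333 and 0.378. All 9 had a mean count above the lowest one tested, 6.71, so every gene entered the adjustment. Log2 fold changes ran from -0.44 for Ldlrad4 to 0.99 for Id1 in the authors' deposited table, with a median of 0.37 against 0.08 for all genes tested. Of the 9, 6 had a positive value (66.7%), against 54.0% of all genes tested, and when centred on abundant genes 8 of 9, against 76.2% of all genes tested. The 3 genes with a mean count of at least 1000 (Bhlhe40, Cdkn1a, Ldlrad4) had values under 0, as had all but 7.10% of the genes tested at such counts, and of these Bhlhe40 and Cdkn1a turned positive under centring. The other 6 all had values above 0, with a median of 0.60, while 43.6% of the 10091 genes tested between a mean count of 27.0 and 1000 were positive, with a median of -0.06. Less the median of genes of like mean count, Cdkn2b turned negative and the other 5 did not. These are counts of a chosen list and carry no test.

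**Figure D1:**
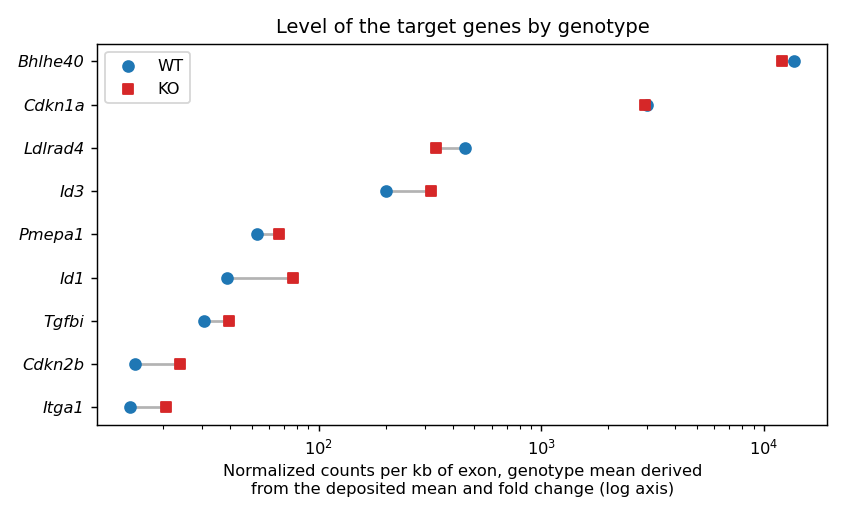
Level of the 9 target genes in normalized counts per kb of exon (log axis), with circles for WT and squares for KO, each a genotype mean derived from the deposited mean and fold change. Bhlhe40 stands at 13692 and 12011 and Itga1 between 14.3 and 20.7.

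Per length of exon, the 9 genes spanned a wide range of abundance. Bhlhe40, at 12851 normalized counts per kb, ranked 36 among the genes tested, and Cdkn1a, at 2954, ranked 219. Ldlrad4 (395 per kb) and Id3 (260.1 per kb) ranked 1517 and 2236. Pmepa1 (59.6 per kb), Id1 (57.7 per kb), Tgfbi (35.2 per kb), Cdkn2b (19.5 per kb) and Itga1 (17.5 per kb) lay between ranks 6755 and 10753. These targets include some of the most abundant transcripts of the libraries and some near the middle of the list. With no values per library, the spread behind this order is not known, and neighbours such as Pmepa1 and Id1 are not separated.

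**Figure D2:**
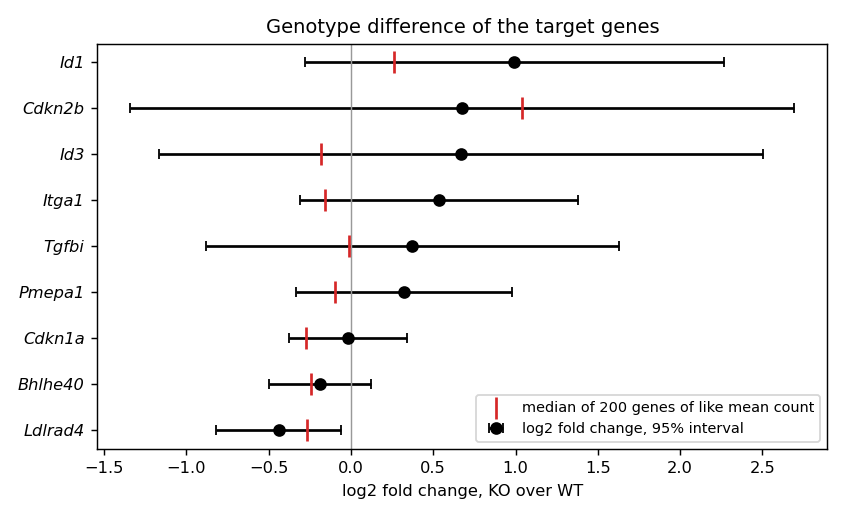
Log2 fold change (KO over WT) of each target gene with its 95% interval (black), and the median of the 200 tested genes nearest in mean count (red tick). The interval of Ldlrad4 lies below 0 (-0.82 to -0.06) and the intervals of the other 8 genes include 0, but centred on abundant genes that of Ldlrad4 does too (-0.57 to 0.19).

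Pmepa1 and Ldlrad4 encode related transmembrane proteins that bind SMAD2 and SMAD3 and dampen TGF-beta signalling, and both are induced by it. Their values pointed in opposite directions. Pmepa1 (ENSMUSG00000038400, chromosome 2, 173224458 to 173276533, minus strand, mm10) had a mean of 52.9 normalized counts per kb in WT and 66.2 in KO. In the authors' deposited table, Pmepa1 had a log2 fold change of 0.32 ± 0.34 (adjusted p = 0.720), with a 95% interval of -0.33 to 0.98. Ldlrad4 (ENSMUSG00000024544, chromosome 18, 67933257 to 68268630, plus strand) had a mean of 454 normalized counts per kb in WT and 335 in KO. For Ldlrad4, the authors' deposited table gave a log2 fold change of -0.44 ± 0.19 (unadjusted p = 0.0232, adjusted p = 0.266), where the 200 genes of like mean count had a median of -0.27. Less that median the value was -0.17. The intervals of the 2 genes overlap (-0.82 to -0.06 for Ldlrad4), and the difference between them was not tested. Ldlrad4 shares exonic bases with Fam210a on the opposite strand (mean count 804, log2 fold change -0.22 ± 0.22 in the authors' deposited table), and the kits are not described as marking strand, so reads of the shared stretch cannot be told apart.

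Id1 and Id3 are helix-loop-helix proteins without a DNA-binding region that hold E proteins off DNA, and are classic direct targets of BMP through SMAD1 and SMAD5. Id1 (ENSMUSG00000042745, chromosome 2, 152736251 to 152737410, plus strand) had a mean of 38.6 normalized counts per kb in WT and 76.9 in KO. In the authors' deposited table, Id1 had a log2 fold change of 0.99 ± 0.65 (adjusted p = 0.516), with a 95% interval of -0.28 to 2.26. Id3 (ENSMUSG00000007872, chromosome 4, 136143497 to 136145755, plus strand) had a mean of 201 normalized counts per kb in WT and 319 in KO. For Id3, the authors' deposited table gave a log2 fold change of 0.67 ± 0.94 (adjusted p = 0.806), with a 95% interval of -1.16 to 2.50. Genes of like mean count had a median of 0.26 beside Id1 and -0.18 beside Id3. The related Id2, which ILC2s need for their development, was far more abundant at 17912 normalized counts per kb and was listed in the authors' deposited table at -0.07 ± 0.14 (adjusted p = 0.872), a value that turned positive when centred on abundant genes or on genes of like mean count. Of the 3 genes for E proteins, the partners that Id proteins block, 0 passed the test, against 0.552% of all genes tested. Tcf4 had the smallest p of the 3, with a value in the authors' deposited table of 0.48 ± 0.34 (adjusted p = 0.559).

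The error of Id3 was unlike that of the other 8 genes. It was 3.37 times the median error of the 200 genes nearest in mean count, against 0.99 to 1.36 times for the rest. With this error, a log2 difference under 3.41 could not have passed the adjusted test for Id3, whereas 2.36 would have sufficed for Id1 at its much lower mean count. A ratio of at least 3, a limit chosen after the values were seen, was reached by 0.865% of all genes tested and by 60 of the 4263 genes (1.41%) within 2-fold of the mean count of Id3. The same ratio was reached by 7 of 12 lung epithelial markers, 5 of 12 fibroblast and smooth muscle markers, 2 of 12 endothelial markers (Kdr and Plvap) and 3 of 10 B and plasma cell markers. It was reached by 0 of 12 ILC2 markers, 0 of 11 T cell markers and 0 of 11 macrophage and monocyte markers. The deposited error does not show which library or genotype the spread came from.

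**Figure D3:**
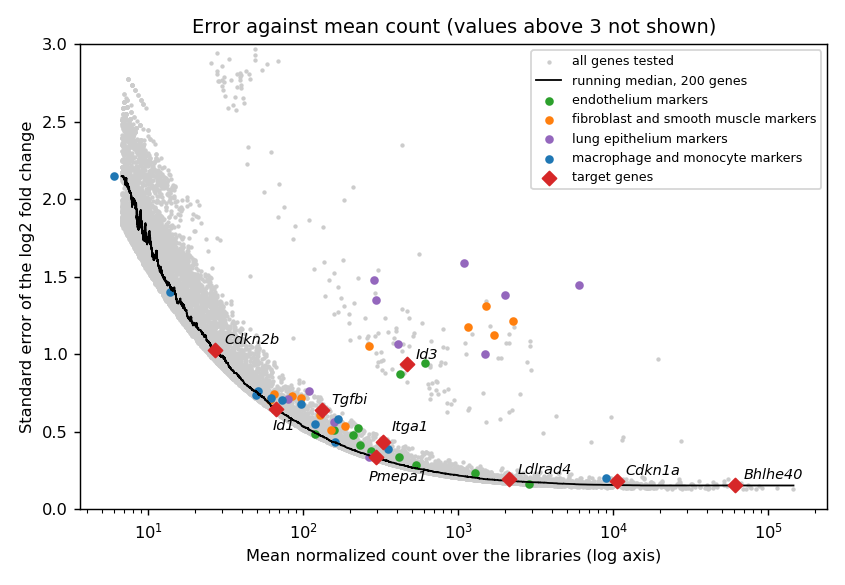
Standard error of the log2 fold change against mean normalized count (log axis) for all genes tested (grey), the target genes (red diamonds) and markers of 4 other cell types, with the running median in black. Id3 lies at 0.94 beside endothelial, fibroblast and epithelial markers, while the other target genes lie near the line.

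Bhlhe40 encodes a basic helix-loop-helix repressor that limits Il10 and supports cytokine production in T cells, and TGF-beta is 1 of several inputs that induce it. Bhlhe40 (ENSMUSG00000030103, chromosome 6, 108660629 to 108666925, plus strand) had a mean of 13692 normalized counts per kb in WT and 12011 in KO. In the authors' deposited table, Bhlhe40 had a log2 fold change of -0.19 ± 0.16 (adjusted p = 0.636), and it turned to 0.06 when centred on abundant genes and to 0.05 less the median of genes of like mean count. The 95% interval, -0.50 to 0.12, lies within a 1.5-fold difference in either direction. An antisense transcript that overlaps its exons, 0610040F04Rik, had a mean count of 4.51 in the authors' deposited table, against 60464 for Bhlhe40. Its close relative Bhlhe41 was scarce, at 4.00 normalized counts per kb, and was listed in the authors' deposited table at 0.69 ± 1.05 (adjusted p = 0.828), a value that turned negative less the median of genes of like mean count. Of 4 other repressors of the BHLHE and HES/HEY families, 0 passed the test, against 0.552% of all genes tested. Hes1, a Notch target, had the smallest p of them, with a value in the authors' deposited table of 0.45 ± 0.21 (adjusted p = 0.314), or 0.70 under both centrings.

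Cdkn1a encodes p21, which inhibits cyclin-dependent kinases, and Cdkn2b encodes p15, which blocks CDK4 and CDK6, and both mediate growth arrest by TGF-beta in epithelial cells. They stood far apart in level. Cdkn1a (ENSMUSG00000023067, chromosome 17, 29090976 to 29100727, plus strand) had a mean of 2971 normalized counts per kb in WT and 2938 in KO. For Cdkn1a, the authors' deposited table gave a log2 fold change of -0.02 ± 0.18 (adjusted p = 0.983), with a 95% interval of -0.38 to 0.34 that lies within a 1.5-fold difference in either direction. Genes of like mean count had a median of -0.27, and Cdkn1a turned to 0.26 less that median and to 0.24 when centred on abundant genes, and under both the upper end of its interval (0.62 and 0.60) passed a 1.5-fold difference. Cdkn2b (ENSMUSG00000073802, chromosome 4, 89306299 to 89311039, minus strand) had a mean of 15.0 normalized counts per kb in WT and 23.9 in KO. The authors' deposited table listed for Cdkn2b a log2 fold change of 0.68 ± 1.03 (adjusted p = 0.825), and it turned to -0.36 less the median of genes of like mean count, which was 1.04. At this error a log2 difference under 3.74 could not have passed the adjusted test, so for Cdkn2b all but very large differences were not detectable.

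Other genes of growth arrest did not pass the test either. Of 5 other CDK inhibitor genes tested, 0 passed the test and 0 had an unadjusted p under 0.05, against 0.552% and 13.6% of all genes tested. Cdkn2d, the most abundant of them by mean count, was listed in the authors' deposited table at -0.24 ± 0.27 (adjusted p = 0.759). Cdkn2d turned positive, at 0.02, when centred on abundant genes. Among 15 further targets of p53, which also drives Cdkn1a, 0 passed the test and 2 had an unadjusted p under 0.05, both lower. Of all genes tested 13.6% passed at this p in either direction and 3.95% were lower. Among genes with a mean count of at least 1000, as both have (1665 and 1648), 536 of 2480 were lower at this p. The 2 p53 targets were the cyclin G1 gene Ccng1 (-0.53 ± 0.19, adjusted p = 0.159) and Trp53inp1 (-0.50 ± 0.18, adjusted p = 0.162), as listed in the authors' deposited table. Centred on abundant genes, Ccng1 stood at -0.28 (unadjusted p = 0.146) and Trp53inp1 at -0.25 (0.176), and less the median of genes of like mean count at -0.29 (0.134) and -0.24 (0.192). The p53 list had a median of -0.04 with 7 of 15 values positive, and when centred on abundant genes 0.21 with 13 of 15, against 54.0% of all genes tested as deposited and 76.2% centred.

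Tgfbi encodes a secreted matrix protein named for its induction by TGF-beta, and Itga1 encodes the alpha 1 integrin chain, which with the beta 1 chain binds collagen and marks tissue-resident lymphocytes. Tgfbi (ENSMUSG00000035493, chromosome 13, 56609523 to 56639562, plus strand) had a mean of 30.6 normalized counts per kb in WT and 39.7 in KO. For Tgfbi, the authors' deposited table gave a log2 fold change of 0.37 ± 0.64 (adjusted p = 0.848), with a 95% interval of -0.88 to 1.63. Itga1 (ENSMUSG00000042284, chromosome 13, 114953096 to 115101964, minus strand) had a mean of 14.3 normalized counts per kb in WT and 20.7 in KO. The authors' deposited table listed for Itga1 a log2 fold change of 0.53 ± 0.43 (adjusted p = 0.619), with a 95% interval of -0.31 to 1.38 and a median of -0.16 in genes of like mean count. The gene Pelo lies within the span of Itga1 without sharing exonic bases, at a mean count of 17.6 against 325 for Itga1 in the authors' deposited table. The model Gm49395 shares exonic bases with Itga1 on the same strand, so reads of those bases cannot be assigned with certainty. Itgb1, the partner chain, was abundant at 903 normalized counts per kb and was listed in the authors' deposited table at 0.09 ± 0.20 (adjusted p = 0.889). Of 7 genes for the beta 1 chain and other collagen- or laminin-binding alpha chains, 0 passed the test, against 0.552% of all genes tested. Itga11 had the smallest p of the 7, with a value in the authors' deposited table of 1.75 ± 1.11 (adjusted p = 0.498).

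**Figure D4:**
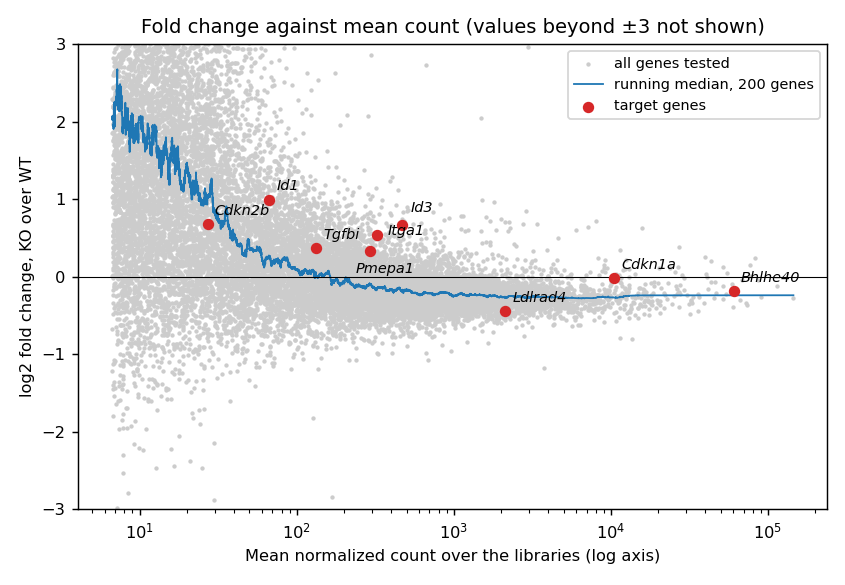
Log2 fold change (KO over WT) against mean normalized count (log axis) for all genes tested (grey), with the running median of 200 genes (blue) and the target genes (red). The median is above 0 at low counts and near -0.25 at counts of at least 1000, and 7 of the 9 target genes lie above it.

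The position of the target genes was set beside that of genes of like abundance because fold changes in this comparison moved with mean count. Genes with a mean count of at least 1000 had a median log2 fold change of -0.25, and those under 1000 had a median of 0.23. Relative to the 200 genes nearest in mean count, 7 of the 9 targets lay above and 2 (Ldlrad4 and Cdkn2b) below, with a median of 0.38. With that running median removed, 0.115% of all genes tested had an adjusted p under 0.05 and none of the 9 targets did. Centred on the abundant genes, the share was 1.18%, again with none of the 9. The count of targets was also 0 without a filter on low counts (0.0594% of all genes), with a mean count of at least 50 (0.322%) and at an adjusted p under 0.1 (1.59%).

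None of the genes listed for upstream parts of the pathway passed the test. Of all genes tested 0.552% did, a share at which lists of this size hold few or no calls. Of 8 TGF-beta ligands and receptors 0 passed, with 4 values above and 4 below 0 and a median of -0.02, or 7 above 0 and a median of 0.23 when centred on abundant genes. All genes tested had 54.0% of values above 0 and a median of 0.08, or 76.2% and 0.33 with that centring. Tgfbr2, the ligand-binding receptor, was the most abundant by mean count and was listed in the authors' deposited table at -0.34 ± 0.17 (adjusted p = 0.345), or -0.09 centred on abundant genes and -0.07 less the median of genes of like mean count. Of 13 BMP and activin ligands and receptors 0 passed, with a median of -0.02, or 0.24 when centred on abundant genes. The ligand genes Bmp7 (-0.52 ± 0.18, adjusted p = 0.137) and Bmp4 (1.61 ± 0.91, adjusted p = 0.429) had the smallest p-values and opposite signs in the authors' deposited table. Under centring on abundant genes and on genes of like mean count, Bmp7 stood at -0.27 in both cases and Bmp4 at 1.87 and 0.82. Of 12 SMAD genes and regulators tested 0 passed, with a median of -0.05, or 0.20 when centred on abundant genes. The inhibitory Smad7 had a value in the authors' deposited table of 0.47 ± 0.31 (adjusted p = 0.529) and Smad3 one of -0.25 ± 0.17 (adjusted p = 0.532), and Smad3 turned positive when centred on abundant genes or on genes of like mean count.

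Further targets of the pathway gave 2 calls of opposite sign. Of 17 other TGF-beta target genes, 1 rose and 1 fell, against 0.552% of all genes tested in either direction, and the median was 0.17, or 0.42 when centred on abundant genes. Klf10, a TGF-beta-inducible zinc finger factor, rose in the authors' deposited table by 0.68 ± 0.18 on the log2 scale (adjusted p = 0.0401), and Gadd45b, a stress sensor, fell by 0.48 ± 0.13 (adjusted p = 0.0467). Klf10 did not pass when no filter on low counts was used (adjusted p = 0.0809, and 0.000532 to 0.0487 under the other alternatives), and Gadd45b did not pass without that filter, with a mean count of at least 50, or under either centring (adjusted p = 0.0636 to 1.00). Junb, the most abundant, was listed in the authors' deposited table at -0.12 ± 0.13 (adjusted p = 0.738) and turned positive under both centrings. In this list 4 of 17 genes (Acta2, Ctgf, Cyr61 and Fn1) had an error at least 3 times that of genes of like mean count, as Id3 had. Of 5 other BMP target genes tested, 0 passed, with a median of -0.0024, or 0.25 when centred on abundant genes. None of the 9 targets shared the call of Klf10.

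**Figure D5:**
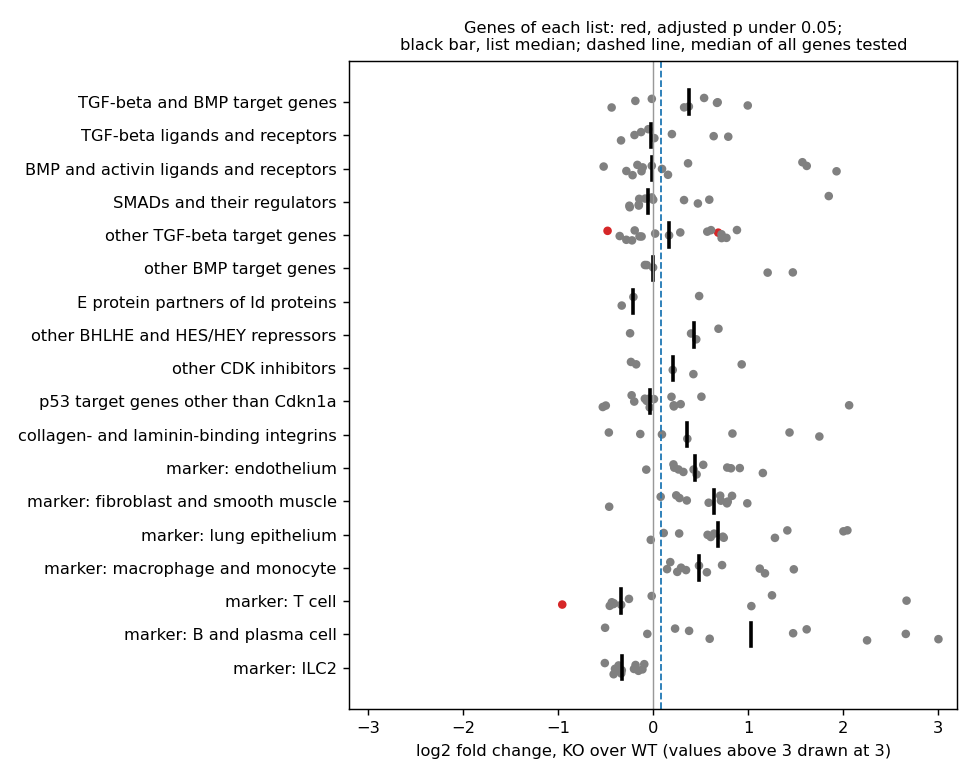
Log2 fold changes (KO over WT) of the genes of each list, with list medians as black bars, genes past an adjusted p of 0.05 in red and the median of all genes tested (0.08) dashed. Klf10, Gadd45b and Cd3g are the 3 red points, and no target gene described here is among them.

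Markers listed for other lung cells were detected in the libraries, and several lists had mostly positive values. Of all genes tested, 54.0% had a positive value, and 76.2% when centred on abundant genes. Of 12 endothelial markers, 11 had a positive value. Their summed mean was 6510 normalized counts in WT and 8107 in KO, of which Calcrl alone made up 2636 and 3053. Emcn (1.15 ± 0.49, adjusted p = 0.240) and Tie1 (0.91 ± 0.37, adjusted p = 0.219) had the smallest p-values of these in the authors' deposited table. Of 11 macrophage and monocyte markers tested, 11 had a positive value. The sums of the list were 9450 in WT and 10807 in KO, of which Lyz2 alone made up 8532 and 9431. Fibroblast and smooth muscle markers were positive in 11 of 12 cases (5714 in WT and 9540 in KO), and lung epithelial markers in 11 of 12 cases (9273 in WT and 15681 in KO). B and plasma cell markers were positive in 8 of 10 cases (7232 in WT and 7907 in KO). T cell markers were positive in 3 of 11 cases (11961 in WT and 8781 in KO). Mean counts in this list were high for Trbc1 (2938), Trbc2 (2525), Zap70 (1873), Lat (1837) and Cd3g (963). They were 114 for Trac, 51.8 for Cd3e, 18.1 for Cd3d, 17.7 for Cd8b1, 14.8 for Cd5 and 13.8 for Cd4. Whether these RNAs came from T cells or from the ILC2s was not tested. In the authors' deposited table Cd3g fell by 0.96 ± 0.24 on the log2 scale (adjusted p = 0.0292). That call was lost without a filter on low counts (adjusted p = 0.0588) and under both centrings (0.103 and 0.380). ILC2 markers, with a median mean count of 12251, were positive in 0 of 12 cases, and in 5 of 12 when centred on abundant genes. Of the genes tested with a mean count of at least 1000, 7.10% were positive, and by construction 50% when centred on abundant genes. With that centring, positive values numbered 12 of 12 endothelial, 11 of 11 macrophage and monocyte, and 11 of 12 fibroblast and smooth muscle markers. They numbered 12 of 12 lung epithelial, 9 of 10 B and plasma cell and 4 of 11 T cell markers. No marker of any list had a mean count of 0, and 1 of these markers, Cd3g, passed the test, as did 0.552% of all genes tested. The part of other cells in the values of Id1, Id3, Tgfbi and Itga1 was not tested.

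The authors ran the test, and its two-sided p-values set each fold change against its deposited error, from 2 pools of mice per genotype. The spread between pools was not examined gene by gene here. WT is named first in the table, which sets the direction, and with the opposite reading every sign here, that of Nrp1 included, would turn. The 95% intervals of Bhlhe40, Cdkn1a, Ldlrad4 and Pmepa1 lie within a 2-fold difference in either direction, and those of Id1, Id3, Tgfbi, Cdkn2b and Itga1 do not. Under both centrings the interval of Pmepa1 passed that bound (upper ends of 1.23 and 1.08 on the log2 scale), and those of Bhlhe40, Cdkn1a and Ldlrad4 did not.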

How the data were processed

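RNA of sorted lung ILC2s was profiled in 2 WT and 2 KO samples, grouped by the genotype in the titles. Per the labels' protocols, the SMART-Seq HT kit gave full-length cDNA. The submitters' processing notes name HISAT2, Cufflinks and mm10 but no roles. Counter and annotation: not given in the sources used here. Per the file headers, which are those of a DESeq2 results table, the authors deposited a mean normalized count (a signal averaged over libraries), the log2 fold change and its error (log2 scale), their quotient (a score), and p-values before and after adjustment. A further 8 columns of values per library have headings that match no sample label and were not used.

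The sign of the fold change was turned so that positive means higher in KO. Recomputed Benjamini-Hochberg values over 19193 genes differed from the deposited ones by at most 3.96e-05. Intervals are normal 95% intervals from the deposited error. Genotype means assume equal weight of WT and KO. Exonic lengths and positions are from GENCODE M21 (mm10), with lengths for 19123 of the tested genes. The alternatives were no filter, a mean count of at least 50, centring on genes with a mean count of at least 1000, subtraction of the running median over 200 genes, and an adjusted p under 0.1. Subtraction of the running median, with Benjamini-Hochberg adjustment, was tried on data simulated with normal errors. Centring on abundant genes was not tried in this way. Python 3.11.15, pandas 2.3.3 and SciPy 1.17.1 were used.

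The target genes and lists were chosen with earlier results of these data known. Named genes were the 9 targets, Nrp1 and, from each of 18 lists, genes past the test, the 2 of smallest p and that of highest mean count, of which 21 are given beside the targets. Genes that overlap a target, that had wide errors, or whose counts are given within a marker list were named after their values were seen. Ccn1 and Ccn2 are listed as Cyr61 and Ctgf.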

Additional observations from a re-analysis of the deposited data

How the results depend on the processing

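No paired analysis was possible because the columns of library values match no sample label, and for the same reason fits with another tool, a replicate block or a left-out replicate were not run. Of the 9 target genes, 0 passed the adjusted test as deposited, without a filter, with a mean count of at least 50 (Cdkn2b is then not tested), under both centrings and at an adjusted p under 0.1. Genes called over the whole table numbered 106 as deposited (87 higher, 19 lower), 23 without a filter, 35 with a mean count of at least 50, 227 when centred on abundant genes (225 higher, 2 lower), 22 less the running median and 306 at an adjusted p under 0.1. In the pathway and partner lists, 2 genes were called as deposited, 0 without a filter, and 1 each with a mean count of at least 50, centred and less the running median. By construction, filters alter the number of genes adjusted for, and the first centring shifts every log2 value by 0.25. For the rest the cause was not tested. Values that turned sign when centred on abundant genes were Bhlhe40 (0.063), Cdkn1a (0.24), Cdkn2d (0.016), Id2 (0.18), Junb (0.13) and Smad3 (0.0034). Less the running median, Bhlhe40 (0.054), Cdkn1a (0.26), Cdkn2b (-0.36), Bhlhe41 (-0.29), Id2 (0.17), Junb (0.12) and Smad3 (0.022) turned sign. For the 9 targets, 39 of the values under alternatives kept direction and side of the threshold and 5 turned sign. The filters and the looser threshold leave each fold change as deposited. A sign could therefore turn only under the centrings, and the 39 include values that could not change direction. Depth per library is not known here, and errors over 0.6 limit Id1, Id3, Tgfbi and Cdkn2b.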
